A study of Homo sapiens with 32 samples.

Results

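The 10 genes described here are MYC and 9 transcription factor genes of the immediate early response, JUN, JUNB, JUND, FOS, FOSB, FOSL1, FOSL2, ATF3 and EGR1, out of 20033 protein-coding genes. They were taken by name, and every m6A peak that overlapped the RefSeq gene body by at least 1 bp was assigned to the gene, which gave 345 of the 474004 peaks of the series. RNA N6-methyladenosine (m6A) was mapped by methylated RNA immunoprecipitation sequencing (MeRIP-seq), in which RNA fragments are pulled down with an antibody against m6A and sequenced beside the input RNA. The cells were 786-O, a clear cell renal cell carcinoma (ccRCC) line, and RPTEC, an immortalized renal proximal tubule line that stands in for normal kidney. Each was used as an isogenic series of 4 lines without drug treatment: WT, the CRISPR knockout clones SETD2KO-1 and SETD2KO-2, and SETD2KO-1R, a clone derived from SETD2KO-1 that carries a full-length tagged SETD2 transgene. With 2 IP libraries per line, each cell line had 4 SETD2KO libraries and 4 SETD2-expressing libraries (WT and SETD2KO-1R). Every knockout or rescue line is 1 clone, no source says whether the 2 libraries of a line came from separate cultures, and the cell lines were grown in different media (RPMI1640 for 786-O, DMEM/F12 with a growth kit for RPTEC, both with serum). SETD2 status therefore varied between clones and not between libraries of a clone, and a p-value measures the spread between these libraries.

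Immediate early genes are switched on within minutes of a growth factor or stress signal, without new protein synthesis, and their transcripts are short-lived. JUN and FOS family proteins pair through leucine zippers into AP-1, which binds DNA at AP-1 sites, ATF3 is a related leucine zipper factor induced by stress, EGR1 is a zinc finger factor, and MYC pairs with MAX to drive growth genes. m6A is laid down on transcripts during transcription by a METTL3 and METTL14 complex, is read by proteins that can shorten or lengthen transcript life, and is concentrated in many mRNAs around the stop codon. SETD2 writes the histone mark H3K36me3 over transcribed gene bodies, which METTL14 can bind, so that SETD2 loss raises the question of whether methylation of such short-lived transcripts moves.

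Each library was a list of peaks with a score and a summit, and no read counts, so depth is unknown and no interval for counting error can be given. A 786-O library listed 25710 to 39670 peaks and an RPTEC library 19249 to 31207. The shortest lists were RPTEC SETD2KO-2 replicate 2 with 19249 peaks, RPTEC WT replicate 2 with 23126 and, in 786-O, SETD2KO-1R replicate 2 with 25710. These 3 libraries also held the fewest peaks in the 10 genes, with 13, 14 and 15 against 20 to 27 in the other 13. Results were therefore recomputed without them, in turn and, in RPTEC, together. SETD2 itself had 4 to 10 peaks per SETD2KO library and 7 to 10 per SETD2-expressing library in 786-O, and 4 to 6 against 7 to 11 in RPTEC, which is no check of the knockout, since a small CRISPR lesion leaves a transcript. The renal epithelial markers PAX8, PAX2 and LHX1 and the keratins KRT8 and KRT18 had peaks in all 16 libraries, as did the brush border enzyme gene GGT1 and the ccRCC markers EPAS1 and VEGFA. The proximal tubule transporter and receptor genes LRP2, AQP1 and SLC34A1 and the ccRCC marker CA9 had none, and CUBN had 1 peak in all. Of 6 markers of other cell types, PTPRC, CD14 and PECAM1 had no peak, while COL1A1 had peaks in 7 libraries, PDGFRB in 9 and CDH5 in 4. A peak needs a transcript that is both present and methylated, so a gene without a peak in such bulk RNA may be less transcribed, transcribed in fewer cells or less methylated, which cannot be told apart.

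Peaks at 5 of the 10 genes lay over the annotated start itself. JUN and FOSL2 had a peak over the start in 16 of 16 libraries, JUNB in 14, JUND in 12 and EGR1 in 12. The start was covered in 3 libraries at FOSL1, 1 at FOS and 1 at FOSB, and in none at MYC or ATF3. Of 13815 protein-coding genes whose start matched a RefSeq promoter entry, 7.48% had a peak over the start in at least 8 libraries, against 5 of the 8 members with such an entry. Of the 7013 genes with any peak in at least 8 libraries, 14.7% did. FOS and FOSB, among the 8 members, had peaks in fewer libraries and fall outside that second group. The DNA around these 5 starts is shown as the promoter context of the covered starts, and it overlaps the peaks only in part. Most of it lies before the start. The median summit of the site at the start lay 131 bp from it at JUNB, 76 at JUN, 27 at EGR1, -19 at JUND and -59 at FOSL2. Each line gives 220 bases before and 30 after the start, from RefSeq on GRCh38.p14, and capitals mark motifs found by letter search: TGACATCA in JUN, TGACGTCA in JUND and TGANTCA in FOSL2 (sites of the AP-1 and CREB type), TATAAA in JUNB and the serum response element core (CArG box) in EGR1.
JUN (chr1:58784018-58784267, minus strand): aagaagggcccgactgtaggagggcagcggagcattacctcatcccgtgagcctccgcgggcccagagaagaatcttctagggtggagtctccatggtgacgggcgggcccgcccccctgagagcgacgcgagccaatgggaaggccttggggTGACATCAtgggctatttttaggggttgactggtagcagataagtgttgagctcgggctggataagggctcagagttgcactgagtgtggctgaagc
JUNB (chr19:12791266-12791515, plus strand): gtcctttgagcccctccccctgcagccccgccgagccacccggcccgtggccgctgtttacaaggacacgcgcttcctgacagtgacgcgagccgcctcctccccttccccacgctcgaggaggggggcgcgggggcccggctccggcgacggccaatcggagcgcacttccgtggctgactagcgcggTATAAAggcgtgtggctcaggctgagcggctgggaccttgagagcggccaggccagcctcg
JUND (chr19:18281593-18281842, minus strand): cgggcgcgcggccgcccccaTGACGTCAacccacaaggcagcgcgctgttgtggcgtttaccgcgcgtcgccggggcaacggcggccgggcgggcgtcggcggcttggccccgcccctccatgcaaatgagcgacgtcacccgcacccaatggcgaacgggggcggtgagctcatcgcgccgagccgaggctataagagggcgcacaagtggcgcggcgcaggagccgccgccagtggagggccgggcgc
FOSL2 (chr2:28392638-28392887, plus strand): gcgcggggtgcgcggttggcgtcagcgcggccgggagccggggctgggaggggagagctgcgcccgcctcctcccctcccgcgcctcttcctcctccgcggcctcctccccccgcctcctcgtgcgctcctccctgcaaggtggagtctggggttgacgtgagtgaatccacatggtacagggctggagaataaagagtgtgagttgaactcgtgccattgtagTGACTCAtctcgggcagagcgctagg
EGR1 (chr5:138465259-138465508, plus strand): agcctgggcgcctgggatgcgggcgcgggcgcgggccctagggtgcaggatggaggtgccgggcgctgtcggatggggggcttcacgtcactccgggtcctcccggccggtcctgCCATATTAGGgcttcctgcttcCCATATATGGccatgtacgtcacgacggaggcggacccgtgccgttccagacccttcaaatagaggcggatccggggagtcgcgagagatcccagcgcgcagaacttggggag

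Each of these promoters held a match to 1 of the motifs, with 2 CArG boxes in EGR1. Counted on both strands over 22198 promoter entries of protein-coding genes in the same window, TGANTCA was found in 5.32%, TGACGTCA in 2.18%, TGACATCA in 2.05%, the CArG box in 1.12% and TATAAA in 8.28%. The TGACATCA of JUN began 67 bases before the start, the TATAAA of JUNB 31 bases before it, the TGACGTCA of JUND 200 bases before it, and the CArG boxes of EGR1 105 and 83 bases before it. In FOSL2 the TGACTCA lay inside the transcript, at bases 5 to 11. Matches were also found where the start was rarely or never covered, with TATAAA in FOS and in FOSB and TGACATCA in ATF3. On the coding strand GGAC, the core of the commonest m6A sequence, occurred in the first 50 transcribed bases of JUNB and not of JUN, JUND, FOSL2 or EGR1, beside 19.8% of all entries. A match is a description of the letters and not evidence of binding or methylation.

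**Figure D1:**
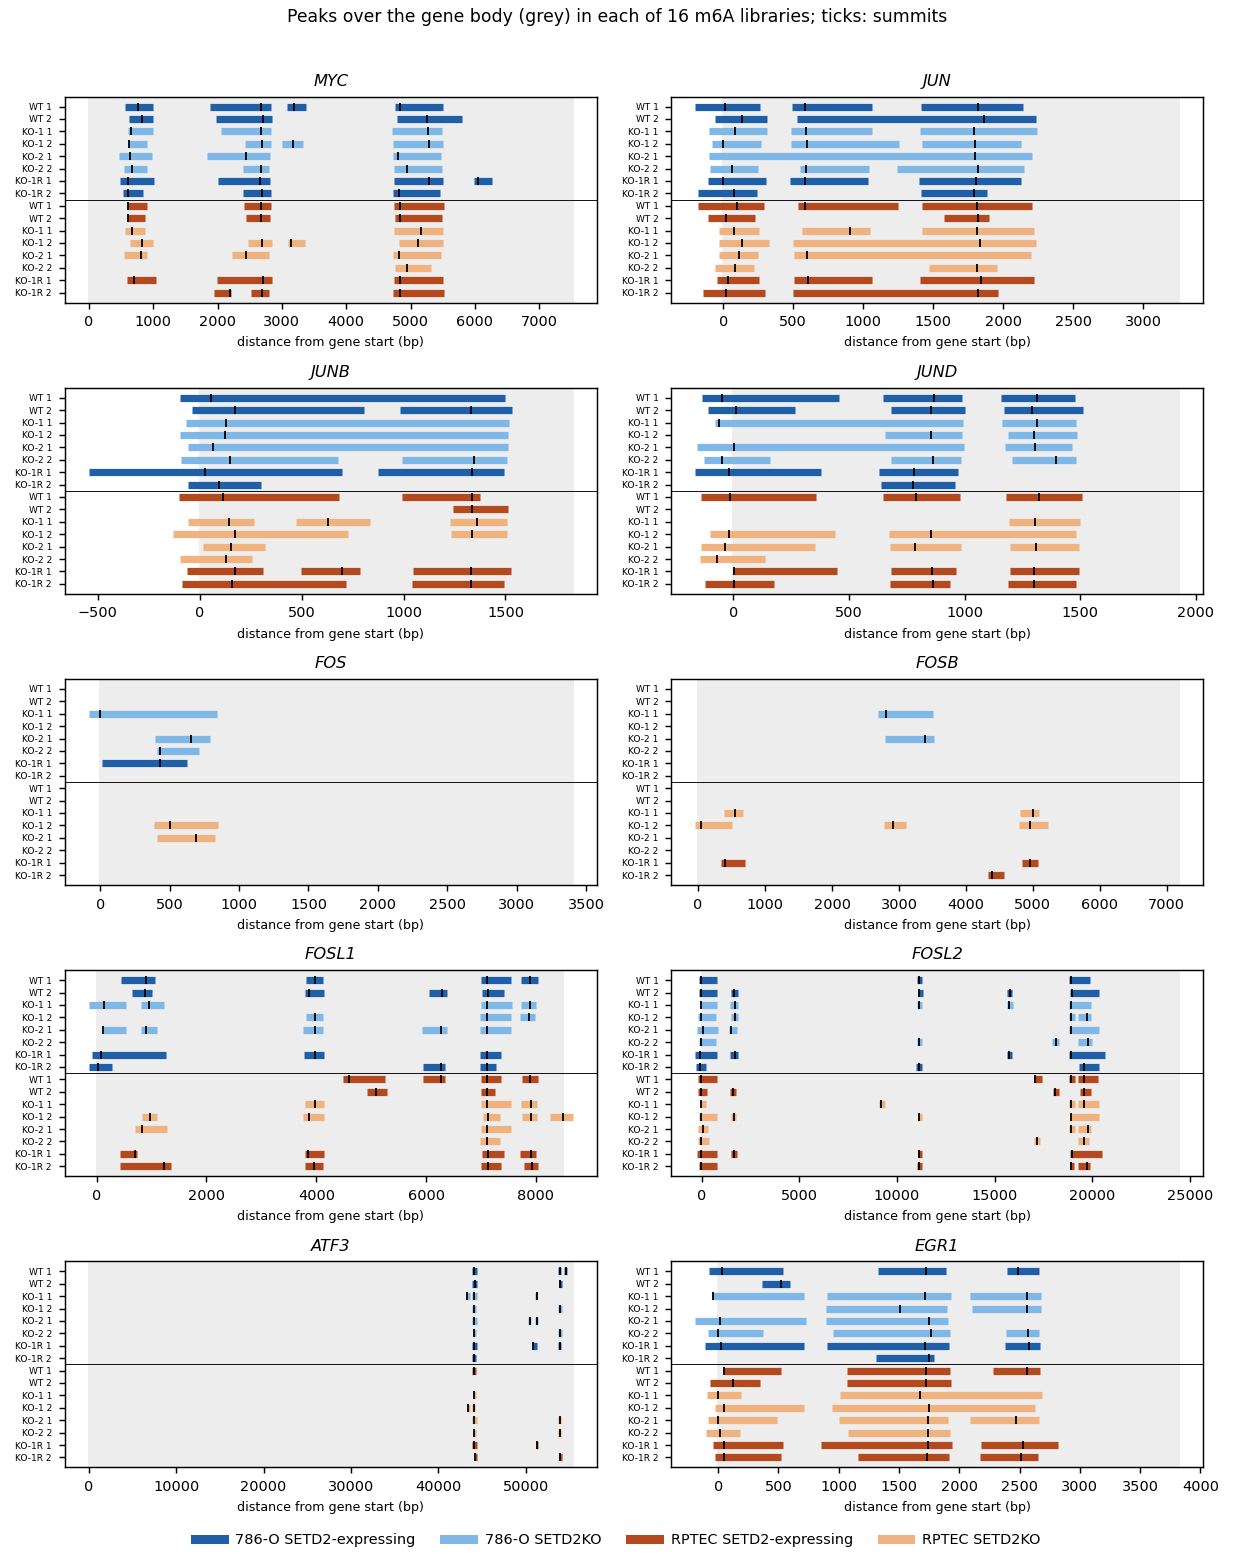
Peaks of the 10 genes in each of 16 libraries, drawn against the distance from the gene start in base pairs, with 786-O above the line, RPTEC below it, the gene body in grey and summits as black ticks. JUN, JUNB, JUND, FOSL2 and EGR1 carry peaks at the start in most libraries, MYC carries 3 main blocks, FOSL1 a block near 7114 bp, and FOS and FOSB have peaks in 6 libraries each.

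Of the 10 genes, 7 had a peak in all 8 libraries of 786-O (MYC, JUN, JUNB, JUND, FOSL2, ATF3 and EGR1), against 31.9% of protein-coding genes. In RPTEC 6 did (MYC, JUN, JUNB, FOSL1, FOSL2 and EGR1), against 26.8%. MYC, JUN, JUNB, FOSL2 and EGR1 had one in all 16 libraries, against 23.1%. These shares also count genes without any peak. Among genes with a peak in at least 2 of the libraries concerned, 6392 of 11594 had one in all libraries of 786-O. In RPTEC 5361 of 11176 did, and over all 16 libraries 4625 of 12683. The members lie closer to these shares. FOSL1 lacked a peak only in 786-O SETD2KO-2 replicate 2, and JUND and ATF3 only in RPTEC WT replicate 2. FOS and FOSB were the exceptions, each with a peak in 6 of 16 libraries.

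To compare peaks across libraries, the score of each peak was turned into its percentile within its own list, and a gene was given the percentile of its highest-scoring peak, or 0 where no peak was listed. By this measure FOSL2 stood highest, at 97.7 ± 2.42 (SD, n = 16), a mean reached by 1.2% of the 12683 genes with a peak in at least 2 libraries. FOSL1 followed at 90.1 ± 24.6, JUNB at 89.7 ± 11.3, JUND at 87.4 ± 23.8, EGR1 at 81.8 ± 14.9, JUN at 80.4 ± 7.05 and MYC at 76.6 ± 19.9 (SD, n = 16 each). ATF3 was at 65.2 ± 28.5, FOS at 13.5 ± 25.5 and FOSB at 12.4 ± 21.5. Neighbours in this order from FOSL2 down to ATF3 lay closer than the larger of their SDs over libraries. The step from ATF3 down to FOS, 65.2 against 13.5, was larger than either SD. The median of the 10 means was 81.1, against 51.2 over all 12683 genes, and 7 of 10 reached 75, against 25.7% of genes. The percentile orders peaks within a library and is not a methylated fraction, and a strongly expressed transcript can reach a high score more easily.

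**Figure D2:**
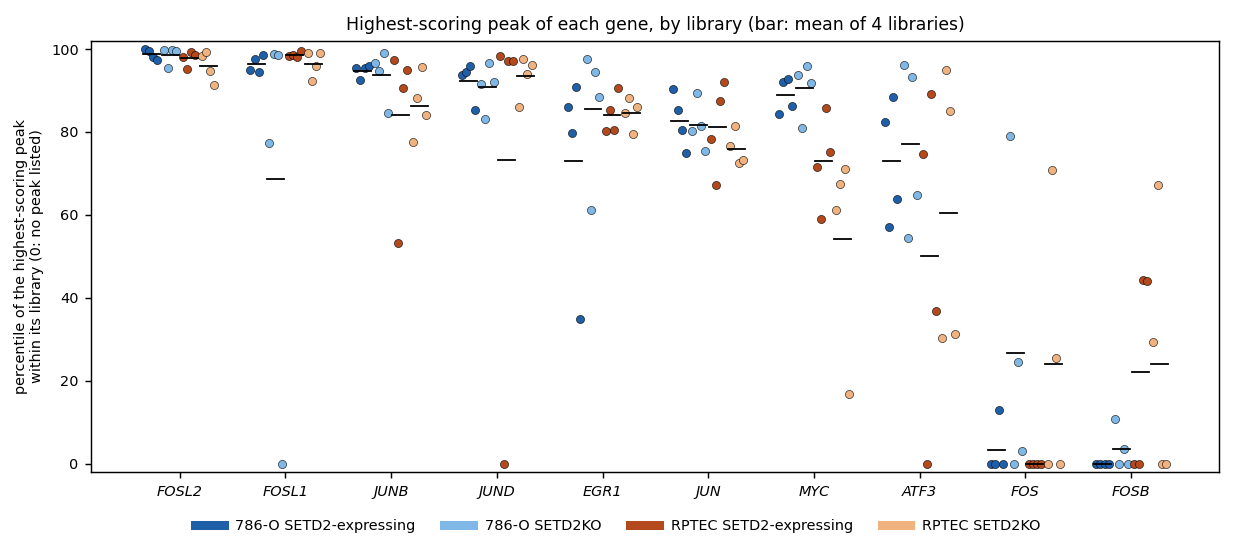
Percentile of the highest-scoring peak of each gene within its library (0 to 100, 0 where no peak is listed), one point per library, with bars at the mean of the 4 libraries of a group. FOSL2 lies above 91 in every library, FOS and FOSB at 0 in 10 of 16, and the MYC points of 786-O, from 80.9 to 95.8, sit above all but 1 of the RPTEC points.

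The JUN family shares a compact, intronless gene structure, and its peaks covered much of the gene. JUN (chr1:58780791-58784047), the founding AP-1 subunit, had 39 peaks in 16 libraries over 48.4% ± 15.2 of its 3257 bp (SD, n = 16). Its summits returned to the same bases: 15 libraries had one 1789 to 1860 bp from the start (SD 19.0 bp) and 15 had one between 4 bp before and 136 bp after the start. A further site 581 to 607 bp from the start was a summit in 8 libraries. Over the 16 libraries together, the JUN peaks merged into a single region of 2439 bp with a peak in 16 of 16. JUNB (chr19:12791486-12793315), an AP-1 subunit that often opposes JUN, had a summit 26 to 174 bp from the start in 15 libraries, at a mean percentile of 92.0, and one 1330 to 1358 bp from the start in 9. JUNB overlaps HOOK2 in the annotation, and the lists carry no strand, so peaks of the overlap cannot be given to one gene. JUND (chr19:18279694-18281622), the most constant of the family in resting cells, had summits from 71 bp before to 11 bp after the start in 12 libraries. Those peaks had a mean percentile of 95.4, against 82.0 for a site near 855 bp (11 libraries) and 78.8 for one near 1306 bp (11 libraries).

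The FOS family divided into a pair of genes with regular peaks and a pair without. FOSL1 (chr11:65892049-65900545), which encodes FRA1, had its most regular site near the gene end: 15 libraries had a summit 7101 to 7132 bp from the start, with an SD of 9.66 bp, 1382 bp before the gene end. The peaks at this site had a mean percentile of 96.1 and ranged from 77.3 to 99.6. Weaker FOSL1 sites lay near 3969 bp (9 libraries, mean percentile 73.5), 7900 bp (8 libraries, 69.5) and 896 bp (7 libraries, 34.7), and a summit 24 to 136 bp from the start was listed in 4 libraries, all of 786-O. FOSL2 (chr2:28392858-28417317), which encodes FRA2, had 61 peaks, the most of the 10 genes. It had a summit from 81 bp before to 70 bp after the start in 16 libraries (mean percentile 94.6) and another 18923 to 18953 bp from the start in 12 (SD 9.58 bp, mean percentile 96.4). A site 11109 to 11137 bp from the start appeared in 8 libraries at a mean percentile of 93.3, so it was among the highest-scoring peaks of the libraries that listed it and unlisted in the others. The start of FOSL2 overlaps FOSL2-AS1, with the same limit on strand.

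FOS (chr14:75278828-75282230), the prototype immediate early gene, had 6 peaks in all. In 786-O they were listed in SETD2KO-1 replicate 1 (841 bp, percentile 79.1), SETD2KO-2 replicate 1 (399 bp, 24.6), SETD2KO-2 replicate 2 (301 bp, 3.04) and SETD2KO-1R replicate 1 (617 bp, 12.8). In RPTEC they were listed in SETD2KO-1 replicate 2 (462 bp, 70.8) and SETD2KO-2 replicate 1 (423 bp, 25.4). The peaks of FOS thus came from 5 SETD2KO libraries and 1 SETD2-expressing library. By Fisher's exact test, two-sided, 3 of 4 SETD2KO against 1 of 4 SETD2-expressing libraries in 786-O gave p = 0.486, and 2 of 4 against 0 of 4 in RPTEC gave p = 0.429, each with an adjusted p of 1. All 6 merged into 1 region from 82 bp before to 850 bp after the start. FOSB (chr19:45467996-45475179), its close relative, had 10 peaks in 6 libraries, spread over 4 regions of which none was called in more than 3. Its highest percentile was 10.8 in 786-O and 67.3 in RPTEC.

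ATF3 (chr1:212565407-212620777) has a gene body of 55371 bp, and all of its 31 peaks lay beyond the first 43257 bp. A region 43858 to 44454 bp from the start was called in 15 libraries and a region near the gene end, 53687 to 54140 bp from the start, in 8. The highest percentile of ATF3 ranged from 54.4 to 96.2 in 786-O and from 0 to 94.9 in RPTEC. EGR1 (chr5:138465479-138469303) had 2 regions, one from -189 to 730 bp relative to the start in 14 libraries and one 855 to 2819 bp from the start in 15. Its summits gathered from 47 bp before to 123 bp after the start (13 libraries, mean percentile 86.0), 1676 to 1765 bp from it (14 libraries, 67.3) and 2473 to 2576 bp from it (9 libraries, 57.2).

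To ask whether the knockout of SETD2 went with a shift of these peaks, SETD2KO libraries were compared with SETD2-expressing libraries within each cell line by the base pairs of the gene body under peaks. In 786-O, EGR1 showed the widest difference: its values were 1368 and 236 bp in the WT libraries, 2336 and 1583 in SETD2KO-1, 1737 and 1620 in SETD2KO-2 and 2016 and 480 in SETD2KO-1R. All 4 SETD2KO libraries lay above both WT libraries and above 1 of the 2 rescue libraries. The means were 1819 ± 351 bp and 1025 ± 820 bp (SD, n = 4 each), a difference of 794 bp (exact permutation test, p = 0.2, adjusted p = 0.831). In RPTEC the EGR1 means were 1815 ± 575 and 1740 ± 430 bp (SD, n = 4 each), a difference of 75.3 bp (exact permutation test, p = 0.8, adjusted p = 1).

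MYC (chr8:127735434-127742951) went the other way, with values in 786-O of 2409 and 2259 bp in WT, 1935 and 1793 in SETD2KO-1, 2238 and 1516 in SETD2KO-2 and 2383 and 1486 in SETD2KO-1R. Both knockout clones lay below WT, and the rescue libraries fell on either side of them. The SETD2KO mean was 1871 ± 300.5 bp against 2134 ± 437 (SD, n = 4 each), a difference of -264 bp (exact permutation test, p = 0.343, adjusted p = 0.882). In RPTEC it was 1251 ± 541 against 1571 ± 339 bp (SD, n = 4 each), a difference of -321 bp (exact permutation test, p = 0.371, adjusted p = 0.881). The size of both differences rested on single libraries: in 786-O it was -480 bp without SETD2KO-1R replicate 2 and -146 bp without SETD2KO-2 replicate 2, and in RPTEC it was -90.9 bp without SETD2KO-2 replicate 2, the shortest list. The share of all peaks that lay on chromosome 8, which carries MYC, was higher in SETD2KO libraries, while the MYC coverage had a lower mean there and its groups overlapped. The share was 4.22% to 4.45% in 786-O SETD2KO libraries against 3.45% to 3.74% in SETD2-expressing ones, and 3.75% to 3.98% against 3.34% to 3.68% in RPTEC. The 2 groups of chromosome 8 shares did not overlap in either cell line (exact permutation test, p = 0.0286 in each, the smallest that 4 against 4 libraries allow). Other chromosomes were not compared here, and the part of this share in the MYC values was not tested.

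Among the other genes, JUN, JUNB, JUND, FOS, FOSB and ATF3 had higher means in 786-O SETD2KO than in SETD2-expressing libraries, by 23.5 bp (ATF3) to 392 bp (FOSB), and FOSL1 and FOSL2 had lower ones, by -292 and -103 bp. Of these, FOSL1 turned to 133 bp without SETD2KO-2 replicate 2, which had no peak there, FOSL2 to 167 bp without SETD2KO-1R replicate 1 and ATF3 to -159 bp without SETD2KO-1R replicate 2. In RPTEC the differences ran from -415 bp (FOSL2) to 243 bp (FOSB), with 5 genes on each side of 0, and those of JUN, JUND, FOSB and EGR1 changed sign with 1 library left out. The FOSL2 difference kept its sign and ranged from -748 bp without SETD2KO-1 replicate 2 to -151 bp without SETD2KO-1R replicate 1. The median difference over the 10 genes was 225 bp in 786-O and 21.3 bp in RPTEC, against 33.8 and -80.3 bp over all genes tested. With all libraries, no member had an unadjusted p below 0.05 in either cell line by the exact permutation test. With 1 library left out, JUN (543 bp, without 786-O WT replicate 2) and EGR1 (1124 bp, without 786-O SETD2KO-1R replicate 1) reached an unadjusted p of 0.0286 by the exact permutation test, with adjusted p of 0.558 and 0.541. Nor did any other gene pass: 0 of 11594 genes in 786-O and 0 of 11176 in RPTEC (0% in both) reached an adjusted p below 0.05 by the exact permutation test, for the bases covered or for the percentile of the highest peak. At an unadjusted p below 0.05 there were 649 and 569 genes for the bases covered, 584 and 499 for the percentile, and 88 and 111 for peak calls by Fisher's exact test. With 70 arrangements of 4 against 4 libraries the smallest p is 0.0286, so this design can hardly pass the adjustment over all genes, and these results do not show that SETD2 loss leaves the genes unaltered. The SETD2KO differences of the cell lines were also compared with each other. Libraries were permuted within each cell line, so the null was no SETD2KO difference in either, and not equal differences. The comparison called 0 of 12683 genes (876 at an unadjusted p below 0.05). The lowest p among the members was at JUNB (difference of differences 593 bp, p = 0.120, adjusted p = 0.791, exact permutation test).

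**Figure D3:**
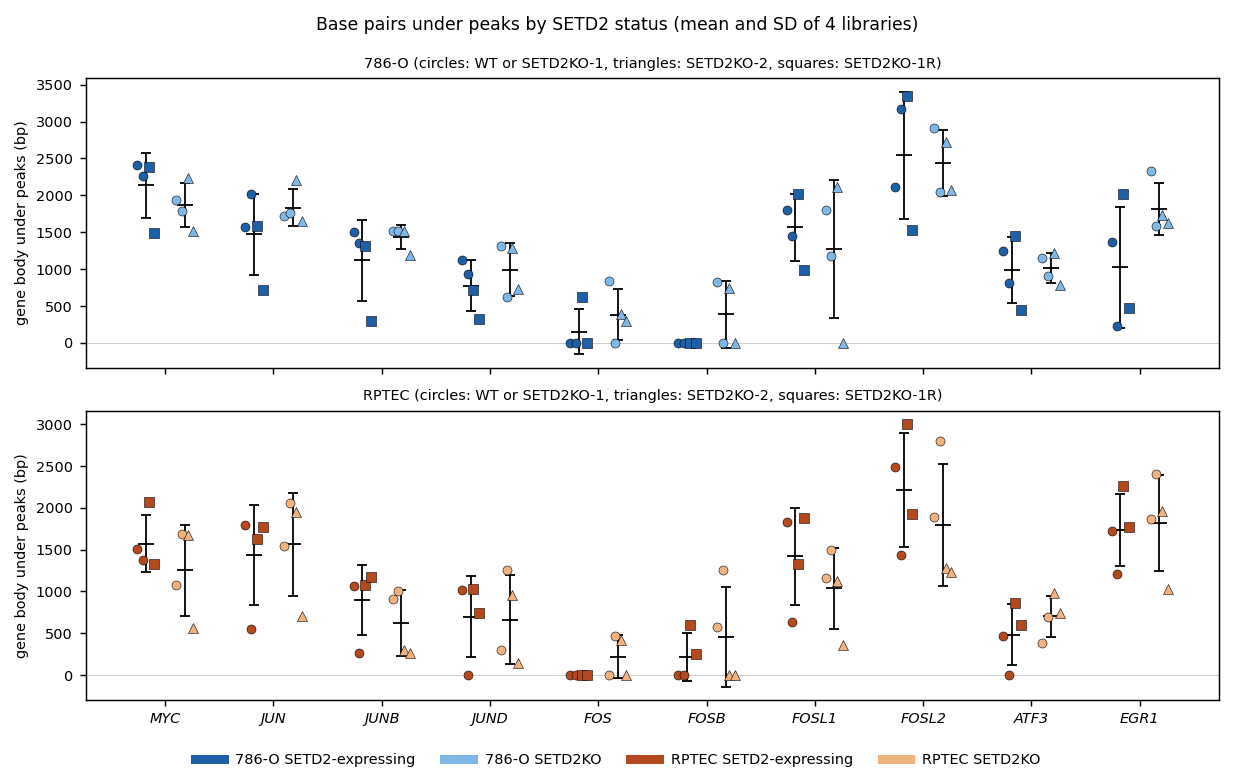
Base pairs of each gene body under peaks in SETD2-expressing (dark) and SETD2KO (light) libraries of 786-O and RPTEC, with the mean and SD of 4 libraries and 1 marker per library. The groups overlap at every gene in both cell lines, and FOS in RPTEC and FOSB in 786-O have peaks in 2 SETD2KO libraries and in no SETD2-expressing one.

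Line by line, 2 libraries stood against 2, where an exact permutation test cannot go below p = 0.333, so no test was run and values without overlap were counted and set beside all genes. SETD2KO-1 of 786-O lay above WT at JUNB and EGR1 and below it at MYC, 3 of the 8 members with enough peaks, where 42.7% of genes did not overlap. SETD2KO-2 lay above WT at FOS and EGR1 and below it at MYC, 3 of 9 against 34.1%. SETD2KO-1R lay below SETD2KO-1 at JUN and JUNB, 2 of 9 against 40.8%. In RPTEC, SETD2KO-1 lay above WT at FOSB and EGR1, 2 of 9 against 36.1%. SETD2KO-2 lay above WT at ATF3 and below it at FOSL2, 2 of 8 against 34.8%, and SETD2KO-1R lay above SETD2KO-1 at JUNB, 1 of 9 against 37.6%. Each count, as a share of the members tested, was below the share over all genes. At JUNB in 786-O, the WT libraries had 1498 and 1356 bp, SETD2KO-1 1517 and 1515, and SETD2KO-1R 1316 and 304. In RPTEC, JUNB had 1065 and 268 bp in WT, 912 and 1007 in SETD2KO-1 and 1082 and 1174 in SETD2KO-1R, so the rescue clone lay below its parent in 786-O and above it in RPTEC.

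The cell lines differ in origin, clones and medium, which cannot be told apart. In the comparison of all 8 libraries of 786-O with all 8 of RPTEC, MYC passed the test. The percentile of its highest peak was 84.4 and 91.9 in the WT libraries of 786-O, 93.7 and 80.9 in SETD2KO-1, 95.8 and 91.8 in SETD2KO-2 and 92.8 and 86.2 in SETD2KO-1R. In RPTEC it was 71.6 and 59.0 in WT, 61.2 and 67.4 in SETD2KO-1, 71.0 and 16.7 in SETD2KO-2 and 85.8 and 75.2 in SETD2KO-1R. A single RPTEC library, SETD2KO-1R replicate 1, reached into the range of 786-O. The means were 89.7 ± 5.2 and 63.5 ± 20.6 (SD, n = 8 each), a difference of 26.2 percentile points (exact permutation test over all arrangements of 8 against 8 libraries with Benjamini-Hochberg adjustment, p = 0.000466, adjusted p = 0.0155). The comparison called 6.65% of 12683 genes, and 4.05% as higher in 786-O, so 1 of 10 members is near the share of all genes. The difference was 17.7 points without the 2 shortest RPTEC lists (exact permutation test, adjusted p = 0.0306) and 22.9 points between the WT libraries alone. The lists of 786-O were longer on average (32818 against 26433 peaks), and a longer list can raise the percentile of the same peak. With the 19249 highest-scoring peaks of every library ranked anew, the difference was 29.7 points (exact permutation test, adjusted p = 0.0193). It was 26.2 points by the means of the 4 lines of each cell line, 4 against 4, where the adjusted p was 0.224 by the exact permutation test and no gene of the series passed. The share of peaks on chromosome 8 differed between the cell lines by 0.275 percentage points (exact permutation test, p = 0.120), and its part in the result was not tested.

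The position of the highest peak of MYC was compared as well. In all 8 libraries of 786-O its summit lay 603 to 822 bp from the start of MYC. In RPTEC it lay there in 2 libraries, at 709 and 819 bp, and otherwise between 2448 and 2690 bp or at 4945 and 5161 bp. The mean position in 786-O minus that in RPTEC was -2092 bp (exact permutation test, p = 0.000777, adjusted p = 0.171), which did not pass the adjustment. Of 4625 genes tested 0 passed, and 49.3% had a difference in position at least as large. Taken region by region, with no test, the block 474 to 1045 bp from the start was called in all 8 libraries of 786-O at a mean percentile of 89.7 ± 5.2 and in 6 of RPTEC at 47.3 ± 31.1 (SD, n = 8, with 0 where uncalled). The block 1841 to 2847 bp from the start stood at 66.6 ± 8.53 and 45.1 ± 32.4. The block 4707 to 5800 bp from the start, called in all 16 libraries, stood at 54.6 ± 12.2 and 50.9 ± 21.0, closer than either SD. MYC had 27 peaks in 786-O and 22 in RPTEC, and a mean of 2002 ± 375 against 1411 ± 452 bp under peaks (SD, n = 8 each, exact permutation test, adjusted p = 0.0730). Proteins of the IGF2BP family bind methylated MYC mRNA and slow its decay, which is background and was not measured here.

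**Figure D4:**
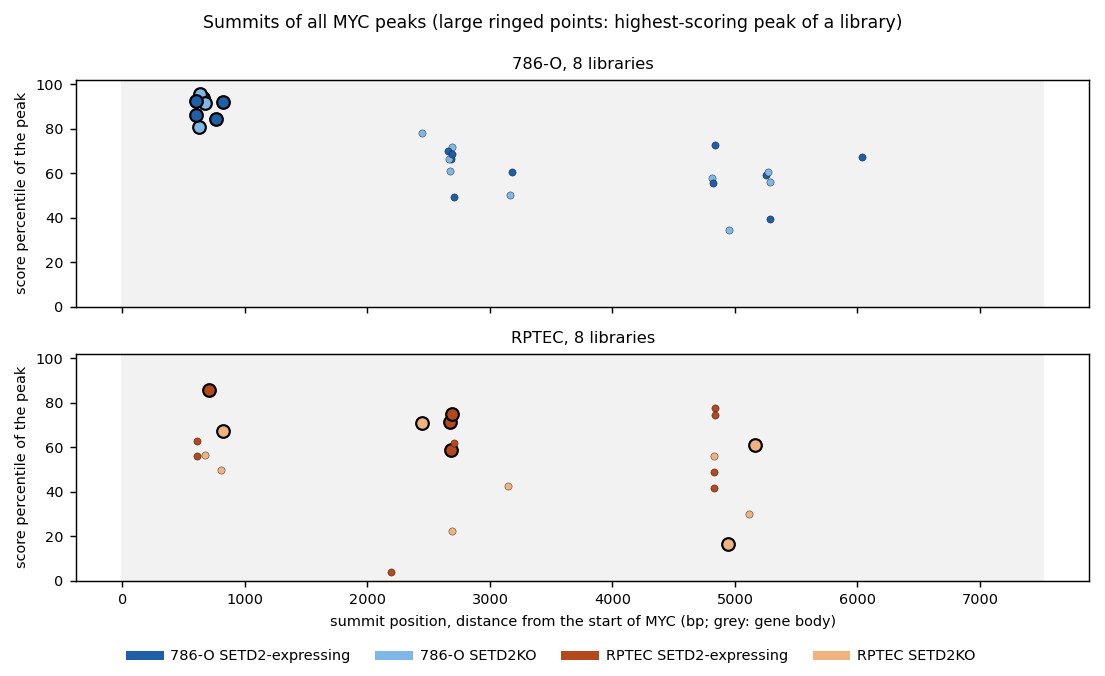
Summits of all MYC peaks by distance from the gene start in base pairs (horizontal) and score percentile within the library (vertical), 786-O above and RPTEC below, with the highest peak of each library drawn large and ringed. The 8 ringed points of 786-O lie between 603 and 822 bp, those of RPTEC are spread over 3 blocks.

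For the other 9 genes no difference between the cell lines passed, by the percentile or by the bases covered (14.3% of 12683 genes passed the latter). JUNB had the largest difference in bases covered after MYC, with 1277 ± 411 bp under peaks in 786-O and 759 ± 406 in RPTEC (SD, n = 8 each, exact permutation test, p = 0.0287, adjusted p = 0.117), which is 69.8% against 41.5% of the gene body. Without 786-O SETD2KO-1R replicate 2, which had 304 bp where the other 786-O libraries had 1195 to 1517, the JUNB difference was 657 bp and passed (exact permutation test, adjusted p = 0.00917). ATF3 had 1001 ± 326 against 592 ± 310 bp (SD, n = 8 each, exact permutation test, p = 0.0222, adjusted p = 0.104). ATF3 and MYC also passed for bases covered without that library, at 489 bp (exact permutation test, adjusted p = 0.0397) and 665 bp (adjusted p = 0.0434). With 1 library left out, 1233 to 2154 genes of the series passed, against 1820 with all libraries. JUNB and ATF3 each passed in 1 of 24 settings, and their lowest differences over the settings were 353 and 156.5 bp. FOSL1 went the other way in rank, with a percentile of 82.5 ± 34.1 in 786-O and 97.6 ± 2.41 in RPTEC (SD, n = 8 each, exact permutation test, adjusted p = 0.462), and the difference of -15.0 points was -3.24 without 786-O SETD2KO-2 replicate 2, which had no peak. FOSB also had a lower percentile in 786-O, 1.8 ± 3.86 against 23.1 ± 26.7 (SD, n = 8 each, exact permutation test, p = 0.0769, adjusted p = 0.279), a difference of -21.3 points. Over the 10 genes the median difference was 198 bp and 3.21 percentile points in favour of 786-O, against 159 bp and 4.17 points over all genes, and 8 of 10 had more bases covered in 786-O, against 72.9% of all genes.

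Peaks of all 16 libraries were merged into regions to ask whether any site of these genes belonged to one condition. The 10 genes held 36 regions. Of these 5 were called in all 16 libraries, at MYC, JUN, JUNB and FOSL2 (2 regions), against 4.85% of all regions in protein-coding genes, and 6 were called in a single library, against 35.6% of all such regions. No region was called in all 4 SETD2KO and no SETD2-expressing library or the reverse, in 786-O (0.344% of all regions) or RPTEC (0.292%). Nor was any called in all 8 libraries of one cell line and none of the other (0.29%). There were 4 regions listed in 786-O alone, in 1 to 3 libraries each, among them a FOSL2 site 15633 to 15930 bp from the start in 3 libraries, and 7 listed in RPTEC alone, in 1 to 3 each.

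The wider response was read from 56 further genes in 5 lists, of which 28 had a peak in all 16 libraries and 4 (BATF, EGR4, NR4A3 and MYCN) in none. For the bases covered, 0 of the tested genes passed between SETD2KO and SETD2-expressing libraries in either cell line. Between the cell lines 6 of 51 were higher and 3 lower in 786-O, beside 14.3% of all genes. The largest difference that passed was at MAFG, which encodes a small MAF protein that pairs with other leucine zipper factors, with 1571 bp more in 786-O (exact permutation test, adjusted p = 0.0188). SPRY2 and DUSP6, feedback inhibitors of the ERK pathway that drives immediate early genes, had fewer bases covered in 786-O, by -1233 bp and -768 bp (exact permutation test, adjusted p = 0.00524 each). DUSP6 had a peak in 1 of 8 libraries of 786-O and in 8 of 8 of RPTEC. MYCL, a MYC relative, had peaks in 8 of 8 libraries of 786-O and 0 of 8 of RPTEC, a difference of 1127 bp (exact permutation test, adjusted p = 0.00524), and ELK1, a partner of serum response factor, had 620 bp more in 786-O (adjusted p = 0.0125). By list, 1 of 6 upstream factors was higher in 786-O, and 2 of 12 tested AP-1 and leucine zipper partners were higher and 1 lower. Of 11 other immediate early genes, mostly transcription factors, 1 was higher. Of 12 feedback and secreted genes 1 was higher and 2 lower, and 1 of 10 genes of the MYC network was higher. The median differences of these lists, in this order, were 262, 109, 96.9, 35.8 and 201 bp, against 159 bp over all genes. Among the other immediate early genes the nuclear receptors NR4A1 and NR4A2 and the zinc finger gene EGR2 had 4, 2 and 4 peaks over the 16 libraries, fewer than the 6 of FOS.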

How the data were processed

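The IP libraries of a MeRIP-seq experiment were used, 16 in all, each as one peak list. Per the labels and methods, the authors aligned paired-end reads to hg38 with STAR, used MACS2 to call peaks per library against input RNA, with scaling by spiked-in E. coli RNA. The deposited lists give position, a whole-number score of unstated scale and a summit offset, while the fold and significance fields hold 0. The 16 input samples were not analysed here. The lists hold no read counts, so depth and counting error are unknown. Cell line, line and replicate came from the labels.

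Peaks were assigned to RefSeq gene bodies (GRCh38) by an overlap of at least 1 bp. The strand of MYC and FOSL1, needed only for distances from the start, is general knowledge, and exons were not used here. For each gene the covered bases, the percentile of the highest score within the library and the calls were taken. Genes with a peak in at least 2 of the libraries compared were tested by two-sided exact permutation over libraries (70 arrangements of 4 against 4, 12870 of 8 against 8), calls by Fisher's exact test, with Benjamini-Hochberg adjustment over all genes tested and a threshold of 0.05. Summits within 150 bp were joined into a site. Merged regions and comparisons of 2 against 2 libraries got no test. No pair of libraries shared over 0.0309% of identical peaks. Alternatives were the upper 50% of each list, equal list lengths, an overlap of 50 bp, the summit in the gene, single clones, WT alone, line means, the replicate number as a block and each library left out. Leaving out the shortest lists, and ranking percentiles anew in lists of equal length, were chosen after seeing the data. The members and gene lists were chosen with earlier results of these data known. All members were named, and from the wider lists the 5 genes with the largest called difference between the cell lines. Genes with few or no peaks (BATF, EGR4, NR4A3, MYCN, NR4A1, NR4A2 and EGR2), the marker genes and SETD2 were named after their values were seen. The permutation code was tested on simulated data. Computation ran in SciPy 1.17.1 with NumPy 2.4.6, tables in pandas 2.3.3 and plots in Matplotlib 3.10.9, under Python 3.11.15. One marker gene is not reported here.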

Additional observations from a re-analysis of the deposited data

Results flagged for a closer look

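In 21 of 120 groups of values (17.5%), 1 library stood apart from the rest of its group by Dixon's test. The nominal rate of about 5% holds for independent, normally distributed values and is no baseline here. The libraries of a cell line were tested together and again by SETD2 status, so the same value can be flagged more than once. A library with a peak in a group otherwise without peaks is always flagged. The count therefore does not show an excess over chance. The part of list length in the flagged values was not tested.

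For bases covered, 786-O SETD2KO-1R replicate 2, the shortest 786-O list, was lowest at MYC with 1486 bp (2259 to 2409 in the other SETD2-expressing libraries), at JUN with 716 bp (1567 to 2204 in the other 786-O libraries) and at JUNB with 304 bp (1195 to 1517). RPTEC WT replicate 2, the second shortest list, was lowest among SETD2-expressing RPTEC libraries at JUN with 547 bp (1632 to 1795) and at JUNB with 268 bp (1065 to 1174). 786-O SETD2KO-2 replicate 2 was lowest among SETD2KO libraries at JUNB with 1195 bp (1513 to 1517). FOS was covered in 1 SETD2-expressing library of 786-O, SETD2KO-1R replicate 1, with 617 bp.

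For the percentile of the highest peak, RPTEC SETD2KO-2 replicate 2, the shortest list of all, was lowest at MYC with 16.7 (59.0 to 85.8 in the other RPTEC libraries). RPTEC WT replicate 2 was lowest at JUNB with 53.2 (77.5 to 97.3) and at JUND with 0 (86.0 to 98.2). 786-O SETD2KO-2 replicate 2 was lowest at JUNB with 84.7 (92.4 to 99.1) and at FOSL1 with 0 (77.3 to 98.9). 786-O WT replicate 2 was lowest among SETD2-expressing libraries at JUNB with 92.4 (95.4 to 95.9), and 786-O SETD2KO-1 replicate 2 was lowest among SETD2KO libraries at FOSL2 with 95.5 (99.4 to 99.7). FOS was highest in 786-O SETD2KO-1 replicate 1 with 79.1 (0 to 24.6), in RPTEC SETD2KO-1 replicate 2 with 70.8 (0 to 25.4) and, among SETD2-expressing 786-O libraries, in SETD2KO-1R replicate 1 with 12.8 (0 in the others). FOSB was highest in 786-O SETD2KO-1 replicate 1 with 10.8 (0 to 3.56).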

How the results depend on the processing

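The percentile difference of MYC between the cell lines passed in 23 of 25 settings and ranged from 19.5 to 29.4 with each library left out in turn. It did not pass with the means of the 4 lines (26.2, exact permutation test, p = 0.0286, adjusted p = 0.224), where no gene passed. That p is the smallest which 4 means against 4 allow, so this setting can hardly pass the adjustment. The WT libraries alone, 2 against 2, were not tested. Equal list lengths with the original percentiles gave the same value and are no check of list length for MYC. With the percentile ranked anew, chosen after seeing the data, the difference was 29.7 (exact permutation test, adjusted p = 0.0193), the uncalled JUN difference turned to -1.71 and 509 genes passed. For bases covered, MYC passed in 4 settings, among them the replicate block (exact permutation test, adjusted p = 0.0457). The count of genes that differed between the cell lines for bases covered went from 1820 to 673 with the upper 50% of each list, 772 with equal list lengths, 970 without the 2 shortest lists and 0 with line means, and for the percentile from 844 to 406, 549, 538 and 0. Without the 2 shortest lists JUN (-136 bp), FOSL1 (-51.8 bp), JUND (-3.44 points) and FOS (-1.08 points) changed sign, none of them called. With each library left out, percentile differences ranged from -6.23 to 11.3 for FOS, -7.86 to 1.09 for EGR1 and -3.60 to 10.4 for JUND.

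Between SETD2KO and SETD2-expressing libraries the count of genes past the threshold was 0 in every setting run, and the signs of these uncalled differences were not stable for several genes. In 786-O, against WT alone JUND was -34.5 bp and ATF3 -18 bp, and without the shortest list ATF3 was -159 bp. With each 786-O library left out, FOSL1 ranged from -570 to 133 bp, FOSL2 from -439 to 167 bp and ATF3 from -159 to 178 bp. In RPTEC, with equal list lengths FOSB was -35.5 bp and FOSL1 79.5 bp, with SETD2KO-1 alone JUNB was 62.3 bp, JUND 81.8 bp and FOSL2 129 bp, with SETD2KO-2 alone JUN was -109 bp, FOSB -214 bp and EGR1 -246 bp, and JUND was 154 bp against WT alone and 142 bp without the shortest list. With each RPTEC library left out, JUN ranged from -167 to 416 bp, JUND from -265 to 142 bp, FOSB from -22.3 to 396 bp and EGR1 from -121 to 338 bp. The cause was not tested.

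Of the line comparisons, with the upper 50% of each list the number of members without overlap fell to 1 in SETD2KO-1 and 1 in SETD2KO-2 against WT in 786-O, and in RPTEC to 1 and 0, and to 0 in SETD2KO-1R against SETD2KO-1, beside 32.2% to 40.4% of all genes in these comparisons. With the summit in the gene it was 1 in SETD2KO-1R against SETD2KO-1 in 786-O and 1 in each SETD2KO clone against WT in RPTEC, beside 35.2% to 41.2% of all genes. Counts also rose by 1: in 786-O to 4 in SETD2KO-1 against WT with the summit in the gene (43.0% of all genes) and to 3 in SETD2KO-1R against SETD2KO-1 with the upper 50% (37.9%) or equal list lengths (39.0%), and in RPTEC to 3 in SETD2KO-1 against WT with equal list lengths (35.4%). With 1 library allowed to differ on each side, 1 member region of 786-O, that of FOS, followed SETD2 status, where 5.48% of all regions did. Deviations of libraries with the same replicate number correlated between -0.0412 and 0.120 in 786-O and between -0.128 and 0.133 in RPTEC, so the numbers do not pair the libraries. With the replicate block the counts between the cell lines were 1606 and 761 and MYC still passed by percentile (exact permutation test, adjusted p = 0.0249), while SETD2 status had 0 calls, the smallest possible p being 0.0556.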
